A study of Homo sapiens with 2 samples.

Results

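The miRNA cluster in CLCN5 is a set of 8 hairpins on the X chromosome, and it was followed here through both arms of every hairpin in stem-enriched breast cancer cells. The members were the rows listed under the hairpins hsa-mir-532, hsa-mir-188, hsa-mir-500a, hsa-mir-362, hsa-mir-501, hsa-mir-500b, hsa-mir-660 and hsa-mir-502 (written without the prefix from here on). They gave 16 mature microRNA (miRNA) names of the 1623 annotated names in the table, on 8 of 1087 annotated hairpins. The rows follow from these names, but the cluster was selected on its counts in the same 2 libraries, so its levels and ratios are a description with no test. Small RNAs were sequenced from 2 human breast cancer cell lines, with 1 library each. The triple-negative line MDA-MB-468, negative for HER2 and for the oestrogen (ER) and progesterone receptors, was grown in DMEM. BT474 is labelled ER-positive and was grown in RPMI-1640. Both media held fetal bovine serum, penicillin and streptomycin, and from both lines the cells sorted by flow cytometry on the surface proteins CD24 and CD44 were used; the labels do not state the gate. Unsorted cells and other lines of either subtype were not analysed here, so the effects of cell line, sort and medium cannot be told apart. In RNA from a bulk of sorted cells, fewer cells with a miRNA and less of it per cell cannot be told apart either.

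MiRNAs are cut from hairpins in longer transcripts by the nucleases Drosha and Dicer. One strand of the resulting duplex, from the 5p or the 3p arm, is usually kept by an Argonaute protein and pairs with target mRNAs through its seed, bases 2 to 8 from its 5′ end. CLCN5 encodes a chloride-proton exchanger of endosomes whose loss causes the kidney disorder Dent disease. Hairpins in an intron can be transcribed together with their host gene, and hairpins of a common transcript can still give different amounts of mature miRNA. CLCN5 mRNA was not measured in these small-RNA libraries.

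The hairpins lie on the plus strand between positions 50003148 and 50014683 of chromosome X (GENCODE 29, GRCh38), a stretch of 11536 bp. CLCN5 (ENSG00000171365.16) runs from 49922615 to 50099235 on the same strand. Of its 9 annotated transcripts, 3 span the cluster, and in each the hairpins fall in the intron from 49925315 to 50042315, with no exon between them. The other 6 transcripts start downstream of the cluster. MIR532 (50003148 to 50003238) and MIR188 (50003503 to 50003588) form the upstream pair, 264 bp apart. After a gap of 4842 bp follow MIR500A (50008431 to 50008514), MIR362 (50008964 to 50009028), MIR501 (50009722 to 50009805) and MIR500B (50010672 to 50010750). MIR660 (50013241 to 50013337) and MIR502 (50014598 to 50014683) are the last.

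Mature sequences were found in RefSeq (GRCh38.p14) for 15 of the 16 names. The sequences of the more abundant arms are shown first because they divide the cluster into a 5p and a 3p set; the seed is in capitals and each is read 5′ to 3′.
miR-532-5p: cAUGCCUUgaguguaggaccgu
miR-188-5p: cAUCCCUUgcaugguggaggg
miR-362-5p: aAUCCUUGgaaccuaggugugagu
miR-500a-3p: aUGCACCUgggcaaggauucug
miR-501-3p: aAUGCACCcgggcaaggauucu
miR-502-3p: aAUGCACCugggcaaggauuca
miR-500b-3p: gCACCCAGgcaaggauucug
The more abundant arm of mir-660 is miR-660-5p. The 3p names of mir-500a, mir-501, mir-502 and mir-500b are variants of one sequence. miR-501-3p and miR-502-3p have the seed AUGCACC in common and are 2 edits apart (substitutions, insertions or deletions). miR-500a-3p holds a run of 20 bases that is also in miR-502-3p, and its 5′ end is shifted by 1 base, which gives it another seed. miR-532-5p and miR-188-5p have seeds found in none of the other 13 members with a matched sequence. Most members have a seed of their own, and only AUGCACC and AUCCUUG occur in more than 1.

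The less abundant 5p arms of the same 4 hairpins are shown because 2 of them cannot be separated by sequence.
miR-500a-5p: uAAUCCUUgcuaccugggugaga
miR-500b-5p: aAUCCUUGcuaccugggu
miR-501-5p: aAUCCUUUgucccugggugaga
miR-502-5p: aUCCUUGCuaucugggugcua
All 18 bases of miR-500b-5p lie within miR-500a-5p, and miR-500b-5p has the same seed, AUCCUUG, as miR-362-5p. The hairpins of mir-500a (chrX:50008431-50008514) and mir-500b (chrX:50010672-50010750) are printed with their longest shared run, 37 bases, in capitals.
mir-500a: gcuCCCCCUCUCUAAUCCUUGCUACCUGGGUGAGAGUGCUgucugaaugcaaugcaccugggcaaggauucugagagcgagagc
mir-500b: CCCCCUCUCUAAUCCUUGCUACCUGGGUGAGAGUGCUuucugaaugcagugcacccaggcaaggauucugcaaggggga
A read from inside this run matches both hairpins, yet the table lists 149 counts under miR-500a-5p and 14 under miR-500b-5p in MDA-MB-468. How the counting divided such reads is not given in the sources used here, so the split between these 2 names, and between miR-500a-3p and miR-502-3p, is uncertain. None of the 15 members with a matched sequence had a run longer than 10 bases in common with a mature miRNA outside the cluster.

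The total of annotated miRNA counts was 11448022 in MDA-MB-468, the deeper library, with 5133057 in BT474, so 100 counts corresponded to 8.74 counts-per-million units (CPM) of that total in the first library and to 19.5 CPM in the second. Each ratio is MDA-MB-468 over BT474, with an exact 95% interval for counting error in brackets. With 1 library per line there was no replicate check. Epithelial marker miRNAs, the miR-200 family and miR-205-5p, had counts for 6 of 6 in both libraries, summing to 85372 CPM (MDA-MB-468) and 58118 CPM (BT474). Blood cell markers summed to 46.3 and 64.3 CPM (6 and 7 of 7 listed) and stromal and muscle markers to 376 and 185 CPM (5 and 6 of 7 listed, miR-133a-3p in neither). The stromal and muscle sums were mostly miR-143-3p (354 and 158 CPM). The part of these markers in the results was not tested.

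The whole cluster was higher in MDA-MB-468. Its 16 names summed to 44424 counts there (3880 CPM, 3844 to 3917), against 4928 counts in BT474 (960.1 CPM, 933 to 987), a 4.04-fold difference (log2 ratio 2.02, 1.97 to 2.06). The sum was mostly miR-532-5p, and without it the others differed 2.72-fold (859 and 316 CPM, log2 1.44, 1.37 to 1.52). A miRNA that reached 10 counts in either library was called higher or lower where its ratio reached 2-fold and its counting interval excluded 1. By this rule 11 of the 15 members that reached the minimum were higher in MDA-MB-468, 4 were neither and 0 were lower. Over all 690 annotated miRNAs that reached it, 32.9% were called higher and 28.3% lower. However, 6 of the 15 reached 10 counts in MDA-MB-468 alone and 5 of these 6 were among the calls. Of the 9 members with 10 counts in both libraries, 6 were higher and 3 neither, beside 25.8% higher and 25.8% lower among the 419 miRNAs that met this condition. The median log2 ratio was 2.01 over these 9 and -0.03 over the 419.

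**Figure D1:**
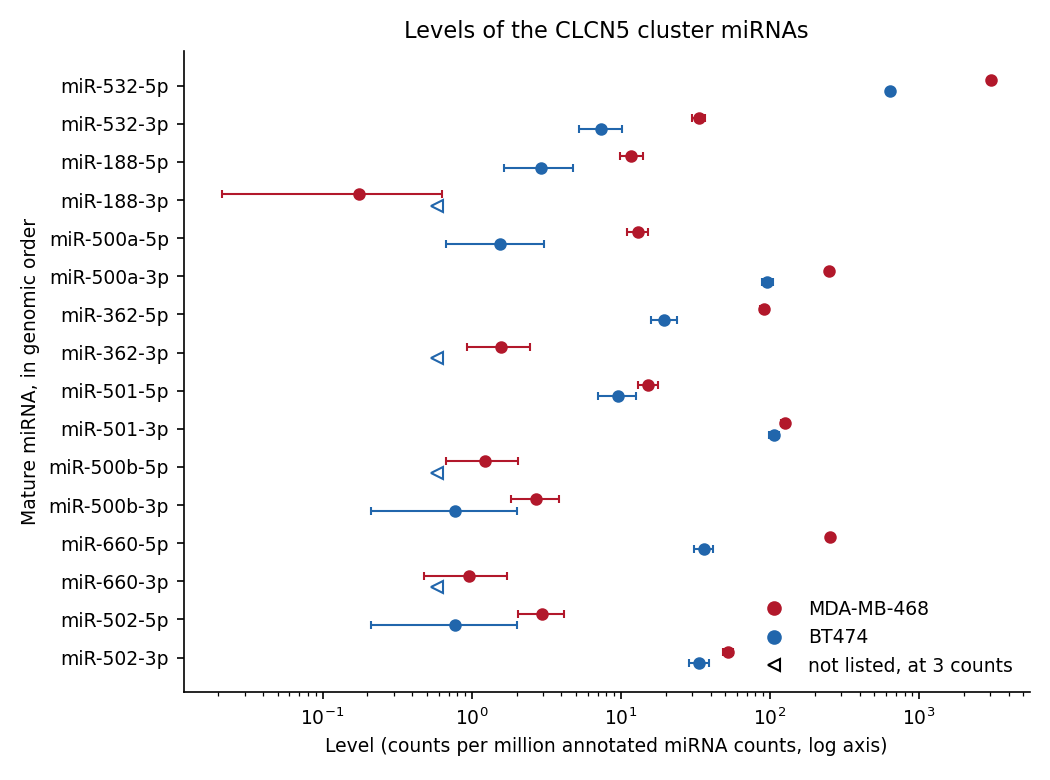
Level of each mature miRNA of the cluster in CPM on a log axis, in genomic order, in the MDA-MB-468 library (red) and the BT474 library (blue). Bars are exact 95% Poisson intervals, and open triangles mark names not listed in BT474, drawn at 3 counts. The red point of miR-532-5p lies at 3022 and the blue at 644; the points of miR-501-3p lie close together at 126 and 107.

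miR-532-5p, which has been described to repress the transcription factor RUNX3, was the most abundant member in both libraries. It had 34591 counts in MDA-MB-468 (3022 CPM, 2990 to 3054), against 3308 in BT474 (644 CPM, 623 to 667). It was the 38th most abundant miRNA of the former and the 70th of the latter. The ratio was 4.69-fold (log2 2.23, 2.18 to 2.28). Its opposite strand miR-532-3p had 381 and 38 counts (33.3 and 7.40 CPM), a ratio of 4.50-fold (log2 2.17, 1.69 to 2.69). Both products of the first hairpin were thus called higher, and a difference between their ratios was not detectable at this depth.

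mir-188, the neighbour of mir-532, was far less abundant. miR-188-5p had 135 counts in MDA-MB-468, against 15 in BT474 (11.8 and 2.92 CPM, log2 2.01, 1.24 to 2.89), a ratio whose interval covers that of miR-532-5p. miR-188-3p had 2 counts in MDA-MB-468 and was not listed in BT474, and no ratio is given for it. Although the hairpins are 264 bp apart, the arms of mir-532 summed to 34972 counts in MDA-MB-468 and those of mir-188 to 137. Such differences between miRNAs of 1 library also carry the ligation and amplification efficiency of each sequence, which was not measured.

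miR-660-5p, described to repress MDM2, the negative regulator of p53, had the highest ratio among the members with 10 counts in both libraries. It had 2916 counts in MDA-MB-468 (255 CPM, 246 to 264), against 185 in BT474 (36.0 CPM, 31.0 to 41.6), a 7.07-fold difference (log2 2.82, 2.61 to 3.04). Its interval lay above that of miR-532-5p. miR-660-3p had 11 counts in MDA-MB-468 and was not listed in BT474. With the blank set at 3 counts its ratio was 1.64-fold (log2 0.72, lower limit of the counting interval 0.17), short of a call.

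miR-362-5p, described to repress the deubiquitinase CYLD, had 1050 counts in MDA-MB-468 (91.7 CPM, 86.3 to 97.4) and 100 in BT474 (19.5 CPM, 15.9 to 23.7). Its log2 ratio of 2.24 (1.94 to 2.55) was close to that of miR-532-5p. miR-362-3p had 18 counts in MDA-MB-468 and was not listed in BT474. With the blank at 3 counts it was 2.69-fold higher (log2 1.43, lower limit of the counting interval 0.98). Its seed ACACACC is also that of miR-329-3p, from chromosome 14, which had no listed count in either library. Likewise miR-6866-3p, which has the seed of miR-188-5p, had no listed count.

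The related hairpins mir-500a, mir-501 and mir-502 differed less between the lines than mir-532, to unequal extents. miR-500a-3p had 2873 counts in MDA-MB-468 (251 CPM, 242 to 260.3) and 494 in BT474 (96.2 CPM), and was called higher at 2.61-fold (log2 1.38, 1.24 to 1.52). miR-502-3p had 603 and 173 counts (52.7 and 33.7 CPM), a log2 ratio of 0.64 (0.40 to 0.90), and was not called. miR-501-3p had 1441 and 550 counts, or 126 CPM (119 to 133) against 107 CPM (98.4 to 116). Its log2 ratio of 0.23 (0.09 to 0.38) was the lowest of the 9 members with 10 counts in both libraries, the nearest to equal levels. The intervals of miR-500a-3p, miR-502-3p and miR-501-3p did not overlap one another, in this order from the highest.

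If each read was counted under 1 name only, the uncertain split between miR-500a-3p and miR-502-3p does not enter their sum. Whether this holds is not known. The sum had 3476 and 667 counts and a log2 ratio of 1.22 (1.10 to 1.35), still above that of miR-501-3p. The 2 names with the seed AUGCACC, miR-501-3p and miR-502-3p, together reached 179 CPM in MDA-MB-468 against 141 CPM in BT474 (log2 0.34, 0.22 to 0.47). The 2 names with the seed AUCCUUG, miR-362-5p and miR-500b-5p, stood at 92.9 and 19.5 CPM (log2 2.25, 1.96 to 2.56). Grouped by the seed of the annotated sequence, the second set was thus 4.77-fold higher in MDA-MB-468 and the first 1.27-fold. The counts pool all isoforms of a name, so reads with another 5′ end, and thus another seed, are not told apart. The first set also rests on the uncertain split between miR-500a-3p and miR-502-3p. The second set was almost all miR-362-5p, with 1050 of 1064 counts in MDA-MB-468 and 100 of 100 in BT474.

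The 5p arms of these hairpins were scarce. miR-501-5p had 175 counts in MDA-MB-468, against 49 in BT474 (15.3 and 9.55 CPM, log2 0.68, 0.21 to 1.17) and was not called, like its opposite strand. miR-500a-5p had 149 and 8 counts (13.0 and 1.56 CPM), a log2 ratio of 3.06 (2.05 to 4.30), above the interval of miR-500a-3p. miR-502-5p, described to repress the histone methyltransferase SETD8, had 34 and 4 counts (log2 1.93, 0.44 to 3.89). miR-500b-5p had 14 counts in MDA-MB-468 and was not listed in BT474. With the blank at 3 counts its ratio was 2.09-fold (log2 1.07, lower limit of the counting interval 0.57). miR-500b-3p had 31 and 4 counts (log2 1.80, 0.30 to 3.76). Counted together, the 5p names of mir-500a, mir-500b and mir-502 had 197 and 12 counts, a log2 ratio of 2.88 (2.04 to 3.86). This sum rests on 12 BT474 counts and leaves out miR-501-5p. With miR-501-5p the 5p names had 372 and 61 counts, a log2 ratio of 1.45 (1.06 to 1.87). Under 6 alternatives of scaling, thinning and unit, the call of miR-500b-5p was lost in 4, those of miR-500b-3p and miR-502-5p in 2 each and that of miR-362-3p in 1.

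**Figure D2:**
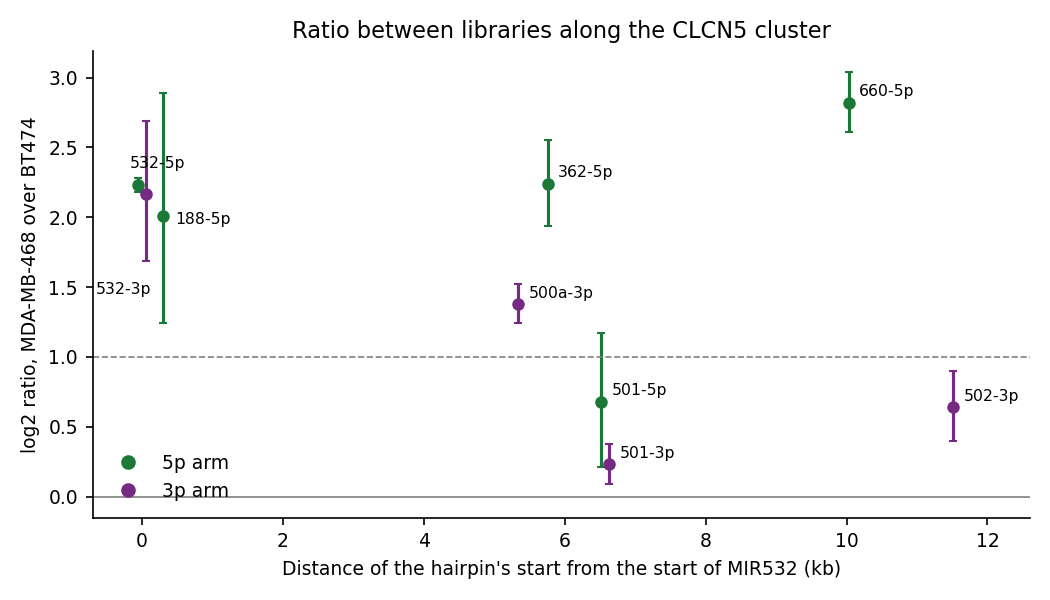
Log2 ratio of MDA-MB-468 over BT474 for the 9 members with at least 10 counts in both libraries, against the distance of their hairpin from the start of MIR532 in kb. Green points are 5p and purple points 3p arms, bars are exact 95% counting intervals, the solid line marks equal levels and the dashed line 2-fold. The arms of mir-501, at 0.68 and 0.23, lie between the higher values of miR-362-5p (2.24) and miR-660-5p (2.82).

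The ratio did not follow position along the intron. From the first hairpin to the last, the log2 ratios of summed arms were 2.23 for mir-532, 2.03 for mir-188, 1.43 for mir-500a and 2.26 for mir-362. The next hairpin, mir-501, whose start is 6574 bp from the start of the cluster, was at 0.27 (0.14 to 0.41). mir-500b, 866 bp further, was at 2.33 with a wide interval (0.88 to 4.27). mir-660 was at 2.83 (2.61 to 3.05) and mir-502, 1260 bp past it, at 0.69 (0.45 to 0.94). The well-counted hairpins with the lowest ratios, mir-501 and mir-502, thus lay upstream and downstream of the one with the highest, mir-660.

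The order of the hairpins by level also differed between the lines. In MDA-MB-468 it was mir-532 (3055 CPM), mir-500a (264), mir-660 (256), mir-501 (141), mir-362 (93.3), mir-502 (55.6), mir-188 and mir-500b (3.93). There mir-500a (255 to 274) and mir-660 (246 to 265) did not differ beyond their counting intervals. In BT474 mir-501 (117 CPM) took second place ahead of mir-500a (97.8 CPM), with an interval of 108 to 126 against 89.4 to 107. mir-660 (36.0, 31.0 to 41.6) and mir-502 (34.5, 29.6 to 40.0) could not be ordered, and mir-362 (19.5), mir-188 (2.92) and mir-500b (0.779) followed. As listed, mir-502 stood behind mir-362 in MDA-MB-468 and ahead of it in BT474. The places of mir-500a and mir-502 rest on the uncertain split between miR-500a-3p and miR-502-3p. Together these 2 names had 129.9 CPM in BT474, so another split could put mir-500a ahead of mir-501.

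The make-up of the cluster does not depend on the scaling of the libraries. miR-532-5p held 77.9% of the cluster's counts in MDA-MB-468 (exact Clopper-Pearson interval 77.5 to 78.3) and 67.1% in BT474 (65.8 to 68.4). The share of miR-501-3p in MDA-MB-468 was 3.24% (3.08 to 3.41), against 11.2% (10.3 to 12.1) in BT474. There it came second as listed, with an interval overlapping that of miR-500a-3p (9.20 to 10.9), whose split from miR-502-3p is uncertain. The shares of miR-500a-3p were 6.47% and 10.0%, those of miR-502-3p 1.36% and 3.51%, and those of miR-501-5p 0.394% and 0.994%, all larger in BT474. The share of miR-660-5p was the larger in MDA-MB-468, at 6.56% (6.34 to 6.80) against 3.75% (3.24 to 4.32). Of the 12 members with counts in both libraries, these 6 had intervals that did not overlap.

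**Figure D3:**
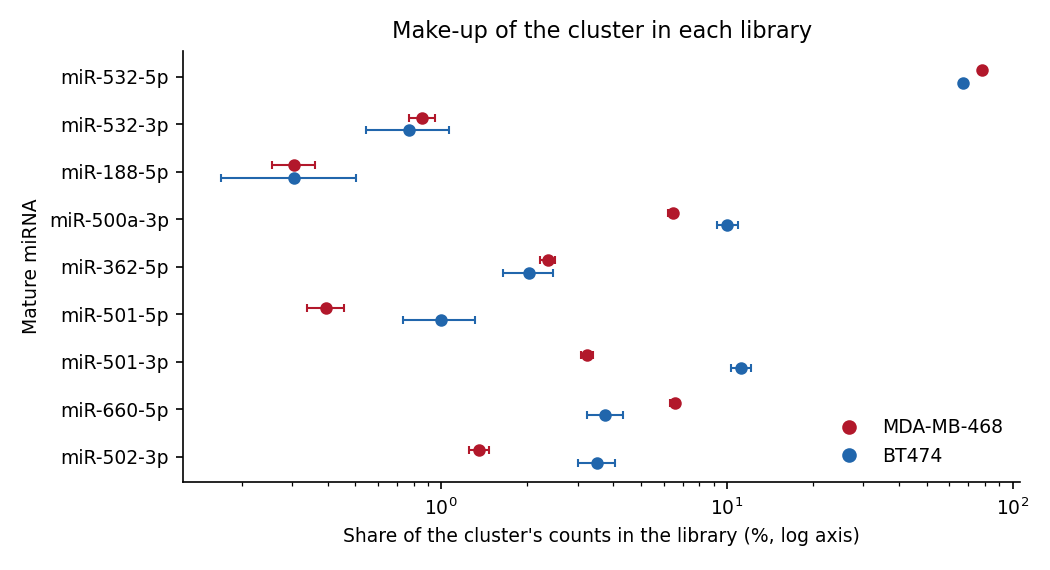
Share of the cluster's counts held by each of the 9 members with at least 10 counts in both libraries, in percent on a log axis, in MDA-MB-468 (red) and BT474 (blue), with exact 95% Clopper-Pearson intervals. The points of miR-188-5p coincide at 0.304%, while those of miR-501-3p lie apart at 3.24% and 11.2%.

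Some members were also set against miR-532-5p, and of those given here only miR-362-5p kept its proportion within counting error. For every 100 counts of miR-532-5p there were 3.04 of miR-362-5p in MDA-MB-468 (2.85 to 3.23) and 3.02 in BT474 (2.45 to 3.69). For miR-501-3p the figures were 4.17 (3.95 to 4.39) and 16.6 (15.2 to 18.2). miR-502-3p had 1.74 and 5.23 and miR-500a-3p 8.31 and 14.9, again higher in BT474, whereas miR-660-5p had 8.43 (8.11 to 8.75) and 5.59 (4.80 to 6.49). Among the 4 related 3p names alone, miR-500a-3p made up 58.1% (MDA-MB-468) and 40.5% (BT474), and miR-501-3p 29.1% and 45.0%. miR-502-3p made up 12.2% (11.3 to 13.1) and 14.2% (12.3 to 16.3), with overlapping intervals. In both comparisons the values of miR-500a-3p and miR-502-3p rest on the uncertain split between these names.

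Arm preference divided the hairpins in the same way in both libraries. The 5p arm held 98.9% of the counts of mir-532 in MDA-MB-468 (98.8 to 99.0) and 98.9% in BT474 (98.4 to 99.2). For mir-362 it held 98.3% and 100.0% (96.4 to 100.0) and for mir-660 99.6% and 100.0% (98.0 to 100.0), since neither 3p arm was listed in BT474. For mir-188 it held 135 of 137 counts and 15 of 15. The 3p arm was the more abundant in mir-500a (95.1% and 98.4%), mir-501 (89.2% and 91.8%), mir-502 (94.7% and 97.7%) and mir-500b (68.9% of 45 counts and 4 of 4 counts, the latter with a 5p share of 0 to 60.2% by the exact interval). A change of preference, taken as at least 20 percentage points with separate intervals, was seen in 0 of the 6 hairpins with at least 100 counts in each library. A smaller difference was seen in mir-500a, whose 5p share was 4.93% in MDA-MB-468 (4.19 to 5.76) and 1.59% in BT474 (0.690 to 3.12). This value uses miR-500a-5p, whose reads cannot be told from those of mir-500b within the shared run.

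**Figure D4:**
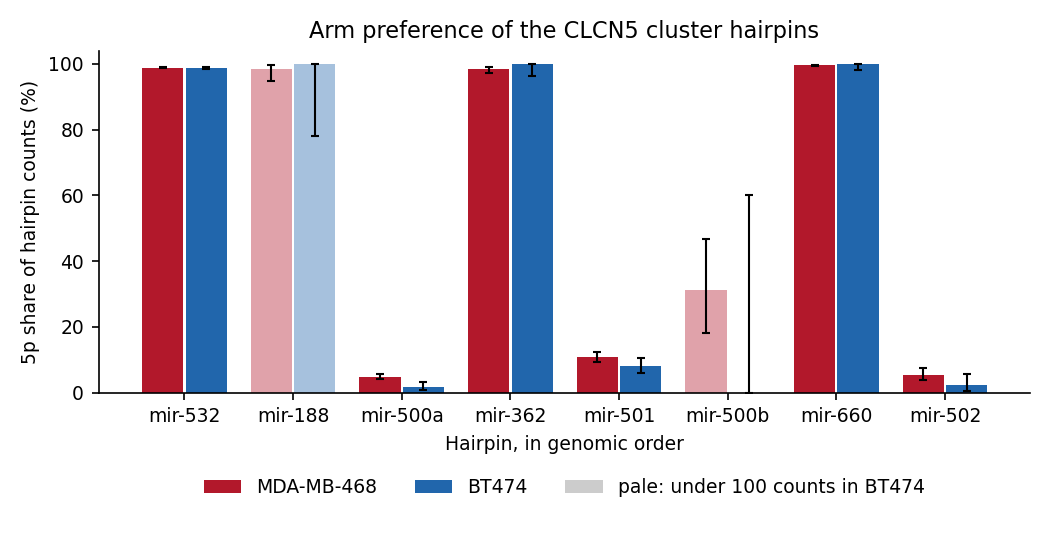
Share of 5p counts among all counts of each hairpin, in percent, in MDA-MB-468 (red) and BT474 (blue), with exact 95% Clopper-Pearson intervals; pale bars mark hairpins with under 100 counts in BT474. mir-532, mir-188, mir-362 and mir-660 stand above 98% in both libraries, and mir-500a, mir-501 and mir-502 stay at or below 10.8%.

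The 5p-dominant hairpins were also the ones with the higher ratios among those counted best. The 5p names of mir-532, mir-188, mir-362 and mir-660 came to 3380 CPM (MDA-MB-468) and 703 CPM (BT474) (log2 2.27, 2.22 to 2.32). The 3p names of mir-500a, mir-501, mir-500b and mir-502 summed to 432 CPM (420.3 to 444) and 238 CPM (225 to 252), a log2 ratio of 0.86 (0.77 to 0.95). This grouping was made after the values were seen, and the first sum is mostly miR-532-5p.

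The miRNAs nearest to miR-532-5p in level came from other loci. By Euclidean distance of log2 CPM over the 2 libraries they were miR-30b-5p (2657 and 717 CPM, distance 0.24), miR-200a-5p (2728 and 770.1 CPM, 0.30) and miR-17-5p (3489 and 539 CPM, 0.33). Other X-linked miRNAs were examined as a list of 38 hairpins. Of 43 names on the X chromosome alone that reached 10 counts in a library, 21 were higher in MDA-MB-468, 9 lower and 13 neither. Over all 690, 32.9% were higher and 28.3% lower. The median log2 ratio was 0.96 for the list and 0.30 over all 690. Some listed names reached 10 counts in 1 library alone, in either direction, so these calls and the median partly follow from the minimum. No count for names with 10 counts in both libraries is given for this list. The most abundant on the higher side by mean log2 CPM of both libraries were miR-98-5p, from HUWE1 (2035 and 1803 CPM, log2 0.17, 0.14 to 0.21, not called), and miR-222-3p (5804 and 189 CPM). On the lower side, by the same measure, they were miR-374b-5p (441 and 1190 CPM, log2 -1.43) and miR-361-3p (367 and 548 CPM, log2 -0.58, not called).

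Within other X-linked clusters the ratios were also uneven. Among names with 10 counts in both libraries, the log2 ratios of the CLCN5 cluster spanned 2.59, from 0.23 to 2.82. Those of the FTX hairpins (5 names) spanned 3.03, from miR-421 at -2.02 to miR-374a-3p at 1.01. The cluster of miR-424, miR-503, miR-542 and miR-450 (6 names) spanned 1.70, from -1.31 to 0.39, and 3 names of the miR-106a cluster spanned 1.74, from 3.77 to 5.51. The span of the CLCN5 cluster was thus narrower than that of the FTX hairpins and wider than those of the other clusters named. It rests on 9 names, more than any of them, and a span can grow with the number of names. The difference between clusters was not tested.

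**Figure D5:**
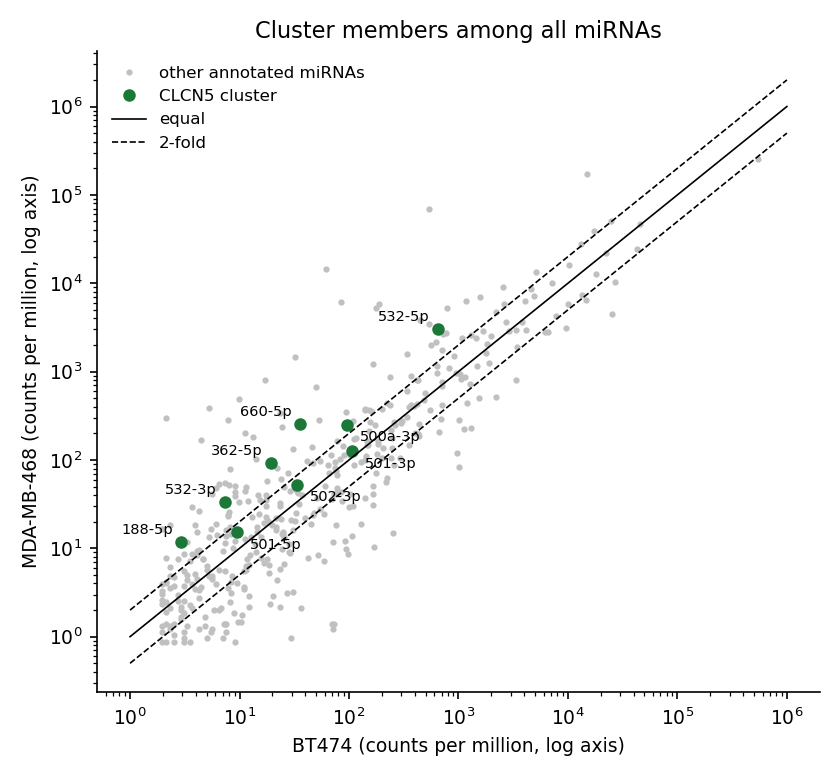
Level of every annotated miRNA with at least 10 counts in both libraries, in CPM on log axes, with BT474 on the x axis and MDA-MB-468 on the y axis. Green points are the 9 members of the CLCN5 cluster; the solid line marks equal levels and the dashed lines 2-fold. Of the green points 6 lie above the upper dashed line and the 3 of miR-501-3p, miR-501-5p and miR-502-3p lie between the lines.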

How the data were processed

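The authors deposited raw tag counts of all isoforms of each mature miRNA per precursor, per the file headers, and normalized scores that they rounded to whole numbers, whose scaling the headers do not describe. Small RNAs of 15 to 35 nt were read for 51 cycles on an Illumina HiSeq, per the labels' protocols, and the submitters' processing notes name Novoalign 2.07.11. For the build, miRNA release and counting tool, no entry is given in the sources used here. Libraries were assigned by cell line; the table's MAD-MB-468 column was taken to be MDA-MB-468. The smallest listed count was 2, so a blank is not a measured 0; it was set at 3 counts in ratios (0.262 CPM in MDA-MB-468, 0.584 in BT474) and at 0 in intervals.

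Of 2121 rows, 384 predicted candidates were left out. A name on several precursors was counted once, at its largest count, and miR-199b-3p was merged with miR-199a-3p, whose counts were equal. Counts were scaled to CPM of the annotated total. Intervals at the 95% level (Poisson, Clopper-Pearson, and conditional binomial for ratios) were computed in Python 3.11.15 with scipy 1.17.1. Since amplified reads carried no molecular identifiers, they are not independent molecules, and the intervals and floors cover only counting error. The ratio script was tested on simulated data. Positions come from GENCODE 29 and sequences from RefSeq GRCh38.p14, matched by name.

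Named were all members, the 3 miRNAs nearest in level to the most abundant member, miRNAs outside with a member's seed, and 4 of a list of X-linked miRNAs, the 2 most abundant in each direction. The other X-linked clusters were compared after their values were seen. The members and lists were chosen with earlier results of these data known. Alternatives covered scaling (edgeR 4.0.16 TMM factors, DESeq2 1.42.0 size factors, both from miRNAs that reached 10 counts, the total without the 10 most abundant miRNAs, the total with predicted candidates, the authors' normalized scores), thinning of the deeper library, count minimum, fold, blanks and precursors.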

Additional observations from a re-analysis of the deposited data

How the results depend on the processing

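No paired analysis was possible because each cell line has 1 library. The log2 ratio of the summed cluster, 2.02, was 1.90 with DESeq2's size factors, 1.81 when the 10 most abundant miRNAs were left out of the total, 2.09 with counts summed over precursors and 2.10 with the authors' normalized scores. Within the cluster it was 1.44 without miR-532-5p and 2.10 without the 4 names that share a run of 18 bases. The members called higher, 11 of 15 beside 32.9% of all miRNAs, were 7 of 10 with a minimum of 50 counts, where 146 of 416 miRNAs (35.1%) were higher and 103 lower. They were 7 of 14 with the authors' scores (32.0% of 643 higher): miR-362-3p, miR-500b-3p, miR-500b-5p and miR-502-5p there have a score of 1 against a blank, set to the smallest score, so that no direction is left for these 4, and miR-660-3p has no score. They were 8 of 11 in libraries thinned to equal totals (33.1% of 616), 12 of 15 with a blank at 1 count (36.2% of 690) and 14 of 15 at 1.5-fold (40.4%). The 6 calls among the 9 members with 10 counts in both libraries were kept under each scaling. Of the other 3, miR-501-5p and miR-502-3p were called higher at 1.5-fold, and miR-501-3p was not. Of 163 log2 ratios of single members and hairpins under other scaling, thinning, blank and precursor settings, 147 lay inside the reported counting interval and 0 were below 0. The other scaling totals and factors moved all log2 ratios by -0.21 to -0.01, and -0.21 and -0.12 (DESeq2) exceed 0.1. Members with under 10 BT474 counts are limited by depth.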
